A study of Homo sapiens with 9 samples.

Results

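The genes described here run glucose breakdown and the transcriptional response to low oxygen, measured in LNCaP. This established line of human prostate cancer came from a metastasis in a lymph node and needs androgen for much of its gene expression. They were chosen by name, with earlier results of these data known, so their shares beside those of all genes are no independent test. Of 35 genes listed, 33 had at least 1 probe set annotated to that gene alone, among 11963 such genes on the array, and they held 58 probe sets. They comprise 22 of 23 listed glycolysis genes (glucose transporters, enzymes and the kinases that steer the pathway) and 11 of 12 listed hypoxia-linked genes. CA9 and SLC16A1 were not analysed here. Each gene is given by its brightest probe set over all arrays unless another is named, and 17 of the 33 had several.

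All cultures first spent 2 days in RPMI with 10% serum that had been stripped with charcoal to remove steroids. They then received ethanol and DMSO (labelled vehicle), 1 nM R1881 with DMSO (labelled R1881; R1881 is a synthetic androgen that cells do not metabolise), or 1 nM R1881 with 20 µM gedunin. Gedunin, a limonoid from neem and related trees, is known to inhibit the chaperone HSP90, and no group received it alone. Each group had 3 arrays marked as biological replicates, 9 in all. The labels give 24 h of treatment, but in the group labelled R1881 the sample titles say 6 h, so a difference in time cannot be told apart from the treatment in any comparison with that group.

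In glycolysis, glucose enters through SLC2A transporters, is trapped by hexokinase, committed by phosphofructokinase and split by aldolase, and its carbon leaves as pyruvate or, through lactate dehydrogenase, as lactate. When oxygen is low, the prolyl hydroxylase EGLN1 no longer marks the HIF alpha subunits for destruction, and HIF raises transcription of glycolytic enzymes, VEGFA, BNIP3 and collagen prolyl hydroxylases. HIF1A protein is set mainly by its stability, so its mRNA is not a measure of HIF activity. HIF1A is also counted among the client proteins of HSP90, and prostate cells draw on androgen to support glucose metabolism.

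Array medians lay between 52.4 and 54.5 intensity units, and log2 values correlated across genes with r of 0.996 to 0.998 within groups and 0.972 to 0.983 across groups (genes are not independent replicates). KLK3, which encodes prostate-specific antigen and is induced by androgen, measured 11839 ± 513 on the arrays labelled vehicle, 1341 ± 104 on those labelled R1881 and 7216 ± 384 on the gedunin arrays (intensity, mean ± SD, n = 3). TMPRSS2 and FKBP5, also androgen-induced, were 16.9-fold and about 40.2-fold lower on the arrays labelled R1881 than on those labelled vehicle. These directions go against the labels, so every group is named by its label, and each direction between the groups labelled vehicle and R1881 rests on labels that these genes contradict. The same doubt reaches each comparison of the gedunin arrays with either of these groups. In neither can an effect of gedunin be told apart from one of androgen. The summed intensity of 8 luminal prostate markers moved with the groups, from 29477 to 31955 on the arrays labelled vehicle, 6221 to 6881 on those labelled R1881 and 14377 to 15792 on the gedunin arrays, and its part in the results below was not tested. KLK3 and KRT18 made up most of this sum, and its members did not move alike. HOXB13 (means 762, 1147 and 544 in the same order) and FOLH1 (268, 708 and 376) were highest on the arrays labelled R1881, and ACP3 (823, 759 and 125) was lowest on the gedunin arrays. Sums of 5 fibroblast markers (366 to 388 on the arrays labelled vehicle, 371 to 393 on the gedunin arrays and a wider range on those labelled R1881) and of 4 leukocyte markers (159 to 182) overlapped between all groups, and 2 and 3 of these markers lay under the lowest array median in every group. So did KRT5 and KRT14, the 2 basal markers measured, whose sum was 55.7 to 59.4, 50.7 to 54.3 and 55.2 to 58.6 in the same order of groups. The 3' minus 5' log2 signal of the ACTB control averaged 0.14 on the arrays labelled vehicle, 0.18 on those labelled R1881 and 0.13 on the gedunin arrays.

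Of the 11 hypoxia-linked genes, 6 fell in the first comparison, with VEGFA, BHLHE40 and BNIP3 the furthest, and 7 rose in the second, with VEGFA, P4HA2 and BNIP3 the furthest. BHLHE40 lay under the lowest array median on the arrays labelled R1881, and its calls were lost with such values raised to it. The 22 glycolysis genes moved in both directions. In the first comparison, arrays labelled R1881 minus arrays labelled vehicle, limma called 30.3% of all genes at an adjusted p under 0.05, 16.7% higher and 13.6% lower. Among the glycolysis genes 3 of 22 rose and 4 fell, a share near this background and so no result about them. Among the hypoxia-linked genes 2 of 11 rose and 6 fell. In the second comparison, gedunin arrays minus arrays labelled R1881, 27.4% of all genes were called, 14% higher and 13.4% lower. There 5 of 22 glycolysis genes rose and 3 fell, while 7 of 11 hypoxia-linked genes rose and 1 fell. Without replicate 3 of the arrays labelled R1881, 5 glycolysis genes fell.

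In the third comparison, gedunin arrays minus arrays labelled vehicle, 26.9% of all genes were called, 15% higher and 11.9% lower. Of the glycolysis genes 5 rose and 5 fell, the latter 3 without gedunin replicate 2. Of the hypoxia-linked genes 5 rose and 0 fell by limma, with 1 lower at an unadjusted p under 0.05. Without vehicle replicate 3, EPAS1 and BHLHE40 passed as lower in this comparison. Taking the comparisons in this order, the hypoxia-linked genes had median log2 fold changes of -0.23, 0.47 and 0.18, against 0.00, -0.01 and -0.01 for all genes. The median in the second was 0.26 with low values raised to the lowest array median, and that in the third 0.41 with dim genes dropped and 0.35 with the most variable probe set. Those of the glycolysis genes were -0.07, 0.01 and -0.06. The 3 comparisons share arrays in pairs, so they are not independent of each other.

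Large changes were fewer. A call with a fold of at least 1.5 was met by 8.46%, 7.15% and 7.02% of all genes in the 3 comparisons. It was met by 3, 1 and 1 of the glycolysis genes, namely HK1, HK2 and PFKM in the first, ALDOA in the second and HK2 in the third. It was met by 3, 5 and 2 of the hypoxia-linked genes, of which VEGFA and MXI1 passed in both the first and the second. Groups that did not overlap were common at large, with 21.4% of all genes higher and 18.4% lower in the first comparison, 18.4% and 19.2% in the second, and 19.5% and 18.8% in the third. Of the glycolysis genes 6 were higher and 10 lower without overlap in the first comparison, 7 and 5 in the second, and 7 and 8 in the third. Of the hypoxia-linked genes these numbers were 2 and 6, 7 and 2, and 5 and 3. Counted by probe set, 27%, 24.3% and 23.5% of all probe sets were called. Among the 40 glycolysis probe sets 12, 15 and 17 were called, and among the 18 hypoxia-linked ones 13, 14 and 8. No gene had probe sets called in opposite directions within a comparison.

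**Figure D1:**
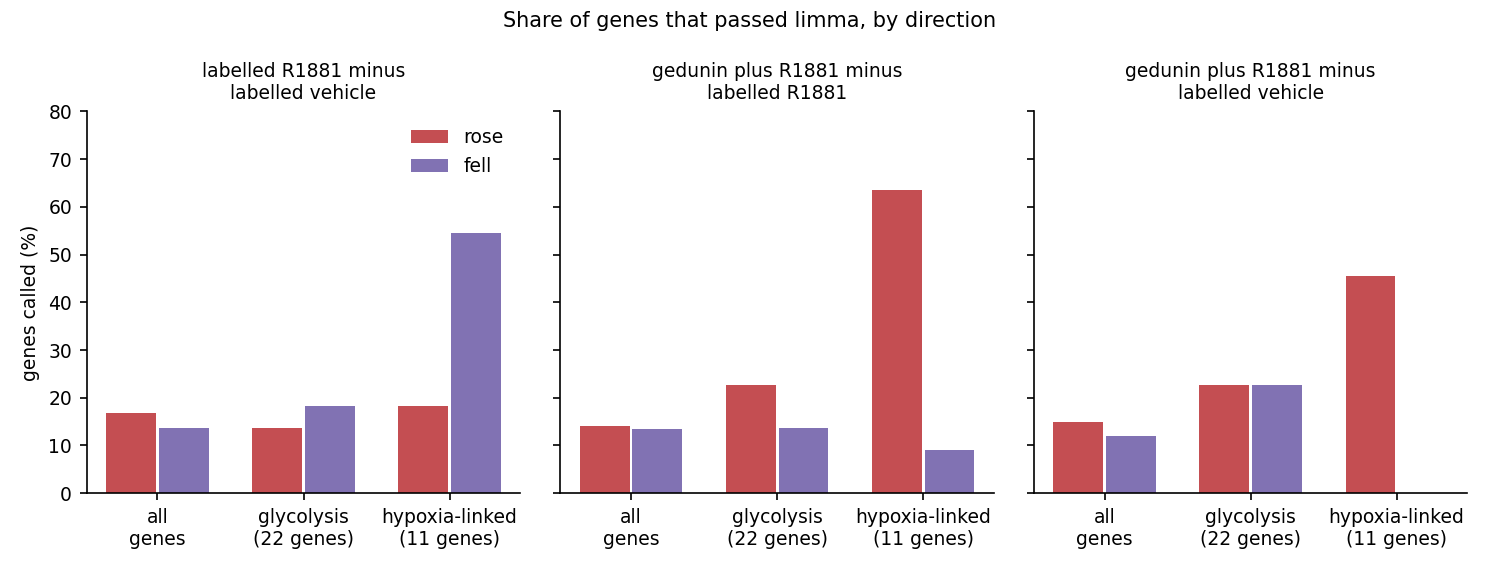
Bars show the percentage of genes called by limma (adjusted p under 0.05) as higher (rose) or lower (fell) in each of the 3 comparisons, for all 11963 genes, the 22 glycolysis genes and the 11 hypoxia-linked genes. The hypoxia-linked bars reach 54.5% fallen in the first comparison, where all genes have 13.6%, and 63.6% risen in the second, where all genes have 14%. Both lists were chosen with earlier results of these data known.

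Entry of glucose was measured through its transporters. SLC2A1, the widely expressed transporter GLUT1, was called in no comparison (log2 fold changes -0.11, 0.10 and -0.01), with means of 269, 249.8 and 267 on the arrays labelled vehicle, labelled R1881 and gedunin plus R1881. SLC2A3, the high-affinity transporter GLUT3, read 65.9, 59.0 and 57.8 on the arrays labelled vehicle, 45.5, 45.5 and 42.7 on those labelled R1881 and 38.9, 41.5 and 43.1 on the gedunin arrays. All arrays labelled vehicle lay above the other 6. It was lower than on the arrays labelled vehicle by limma in the first comparison (log2 fold change -0.45 ± 0.07, SE, adjusted p = 0.000144) and in the third (-0.57 ± 0.07, adjusted p = 2.34e-05). Both other SLC2A3 probe sets were called in the same direction, though they lay under the lowest array median in every group. Another 2 probe sets, shared with the close copy SLC2A14, were left out. The lower means of the brightest SLC2A3 probe set also lie under the lowest array median, 52.4. Their distance from background is therefore unknown, and the folds are approximate.

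Both hexokinase genes were highest on the arrays labelled vehicle. HK1, the housekeeping hexokinase, read 888, 954 and 838 on the arrays labelled vehicle, 453, 491 and 465 on those labelled R1881 and 629.6, 642 and 684 on the gedunin arrays. The 3 groups did not overlap at any point, and HK1 was 1.90-fold lower in the first comparison (log2 fold change -0.93 ± 0.06, SE, limma adjusted p = 1.2e-07), 1.39-fold higher in the second and 1.37-fold lower in the third. HK2, the inducible hexokinase of many tumours, read 123, 131 and 145 on the arrays labelled vehicle, 59.9, 77.7 and 63.6 on those labelled R1881 and 79.8, 74.6 and 78.1 on the gedunin arrays. It was 1.99-fold lower in the first comparison (-0.99 ± 0.09, limma adjusted p = 2.04e-06) and 1.71-fold lower in the third (adjusted p = 2.56e-05), while the gedunin arrays and those labelled R1881 overlapped (0.22 ± 0.09, adjusted p = 0.108). Without replicate 2 of the arrays labelled R1881, the highest of its group, this rise was called (0.33, adjusted p = 0.00784). The second HK2 probe set, 222305_at, stayed near 40, at 41.1, 43.6 and 39.2 in the 3 groups, with log2 fold changes of 0.09, -0.16 and -0.07 that were not called. In these bulk samples, fewer cells of a type and less RNA per cell cannot be told apart.

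Phosphofructokinase commits sugar to the pathway, and its subunit genes differed in response. PFKM, the muscle-type subunit, read 491, 486 and 483 on the arrays labelled vehicle, 875, 891 and 838 on those labelled R1881 and 578, 592 and 587 on the gedunin arrays. It was highest on every array labelled R1881, with a log2 change of 0.83 ± 0.05 (SE) in the first comparison (limma adjusted p = 3.8e-08), -0.57 ± 0.05 in the second (2.02e-06) and 0.27 ± 0.05 in the third (0.00138). PFKL, the liver-type subunit, had log2 fold changes of -0.07, -0.14 and -0.21, of which the last was called (limma adjusted p = 0.0113), though not without gedunin replicate 2 (adjusted p = 0.052). PFKP, the platelet-type subunit, was not called in any of the 3, at 0.05, -0.14 and -0.09.

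The PFKFB genes encode bifunctional enzymes that make and remove a fructose bisphosphate that is the main activator of phosphofructokinase. The probe set with the widest change among them is not the brightest of its gene. PFKFB2 probe set 209992_at read 76.1, 72.2 and 68.5 on the arrays labelled vehicle, 31.8, 28.4 and 24.7 on those labelled R1881 and 35.1, 31.6 and 39.1 on the gedunin arrays. In the fit over all probe sets it was 2.57-fold lower in the first comparison (limma adjusted p = 2.48e-07) and 2.05-fold lower in the third (adjusted p = 4.36e-06), both approximate since the lower means lie under 52.4. In the second comparison it rose by 0.32 on the log2 scale (adjusted p = 0.028), with groups that overlapped. The brightest PFKFB2 probe set, 207931_s_at, gave 65.0, 60.9 and 61.0 in the 3 groups and was not called, at -0.09, 0.00 and -0.09. Why the probe sets differ was not tested. PFKFB3 lay between 22.9 and 30.0 on all arrays, under the lowest array median, and was called higher in the first comparison (0.25 ± 0.06, limma adjusted p = 0.00598). All 3 gedunin arrays held the same PFKFB3 value, 26.6, and equal values understate the spread. With values under the lowest array median raised to it, the PFKFB3 call was lost. PFKFB4 was not called, at -0.12, 0.03 and -0.09.

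**Figure D2:**
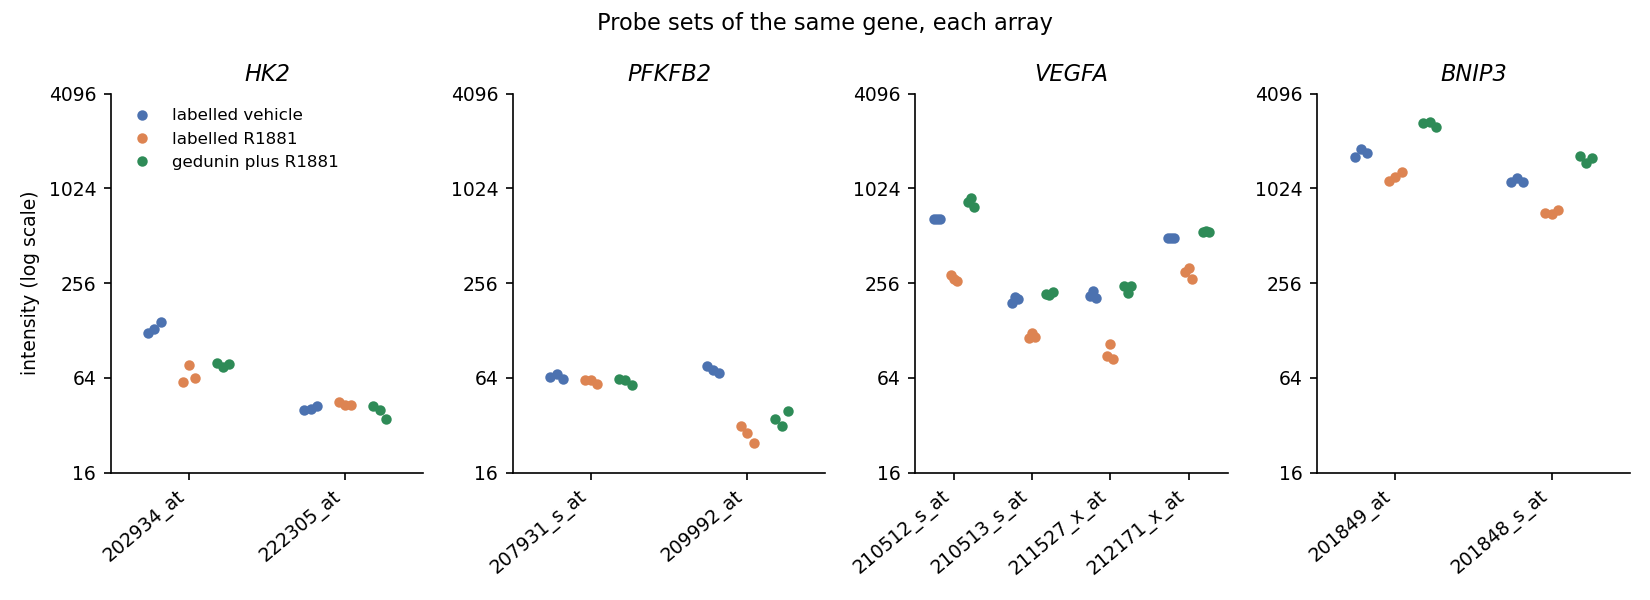
Points show the intensity on each array (log axis) for every probe set of HK2, PFKFB2, VEGFA and BNIP3, coloured by group. The 4 VEGFA and both BNIP3 probe sets keep the arrays labelled R1881 lowest, whereas only 1 of the 2 probe sets of HK2 and of PFKFB2 separates the arrays labelled vehicle from the gedunin arrays.

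From aldolase onward, a few enzymes of the pathway changed. ALDOA, the main aldolase, read 3646, 3646 and 3519 on the arrays labelled vehicle, 3342, 3414 and 3102 on those labelled R1881 and 5249.8, 5322 and 5421 on the gedunin arrays. Every gedunin array lay above every other array, 1.62-fold over those labelled R1881 (log2 fold change 0.70 ± 0.06, SE, limma adjusted p = 6.01e-07) and 1.48-fold over those labelled vehicle (adjusted p = 4.84e-06). Its other probe set gave 1.66-fold and 1.49-fold. ENO1, enolase, which had 3 probe sets, all of them called higher in the second comparison, was 1.30-fold higher in the second comparison (limma adjusted p = 9.23e-05) and 1.22-fold higher in the third. PGK1, phosphoglycerate kinase, was 1.13-fold higher in the second (adjusted p = 0.0277) and 1.17-fold in the third. The PGK1 call in the second comparison was lost when any array of its groups was left out, with adjusted p from 0.0512 to 0.0862, and with quantile normalization repeated (0.12, adjusted p = 0.107) or the mean of all probe sets (0.13, adjusted p = 0.0679). With the most variable PGK1 probe set, 217383_at, its direction turned in the second comparison (-0.15, adjusted p = 0.29), and the call in the third was lost (0.12, adjusted p = 0.401). The mean of 217383_at on the arrays labelled vehicle, 49.5, lay under the lowest array median. In the fit over all probe sets, 200737_at was called higher in the second and the third comparison (0.29 and 0.26, limma adjusted p = 0.000713 and 0.00187). So was 217356_s_at (0.19 and 0.23, adjusted p = 0.0297 and 0.00858). ALDOC, the brain-type aldolase, rose in the third comparison (0.28 ± 0.06, limma adjusted p = 0.00349).

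GPI, TPI1, PGAM1 and PKM were not called in any comparison. GPI, glucose-6-phosphate isomerase, had log2 fold changes of 0.09, 0.02 and 0.11, and TPI1, triosephosphate isomerase, 0.13, -0.13 and 0.00. TPI1 passed in the first and the second comparison without replicate 3 of the arrays labelled R1881 (adjusted p = 0.0466 and 0.0453). PGAM1, phosphoglycerate mutase, had -0.07, -0.04 and -0.11, and PKM, pyruvate kinase, -0.07, 0.11 and 0.04. The PKM probe set does not separate the PKM1 and PKM2 splice forms here. ALDOA, ENO1, PGK1 and GAPDH have processed copies elsewhere in the genome that their probe sets may not separate.

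The lactate dehydrogenase subunits LDHA and LDHB moved in opposite directions in the first and the second comparison. LDHA, whose subunit favours lactate formation, averaged 4494 ± 154 on the arrays labelled vehicle and 3615 ± 128 on those labelled R1881 (intensity, SD, n = 3), and all 3 gedunin arrays held the same deposited value, 4214. It fell in the first comparison (log2 fold change -0.31 ± 0.05, limma adjusted p = 0.000511) and rose in the second (0.22 ± 0.05, adjusted p = 0.0068), where the equal values understate the spread. LDHB averaged 2255 ± 121, 2936 ± 89.4 and 2211 ± 42.6 in the same order of groups. It rose in the first comparison (0.38 ± 0.06, limma adjusted p = 0.000182) and fell in the second (-0.41 ± 0.06, adjusted p = 0.000108), and its other probe set gave 0.35 and -0.41. In the third comparison neither was called, at -0.09 for LDHA and -0.03 for LDHB.

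The pyruvate dehydrogenase kinases hold pyruvate back from the mitochondria. PDK3 was lower on the gedunin arrays than on those labelled R1881 (-0.26 ± 0.07, limma adjusted p = 0.0113) and on those labelled vehicle (-0.24 ± 0.07, adjusted p = 0.0207). Both calls were lost without gedunin replicate 2 (adjusted p = 0.0567 and 0.094), and the call in the third comparison also without vehicle replicate 3 (0.101). Its other probe sets, both under the lowest array median, were not called. PDK1, a HIF target, was not called at -0.11, -0.17 and -0.28, with arrays labelled R1881 spread from 60.6 to 90.9. Without replicate 3 of that group, PDK1 passed in the second comparison (-0.34, adjusted p = 0.0294) and in the third (-0.28, adjusted p = 0.0388).

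**Figure D3:**
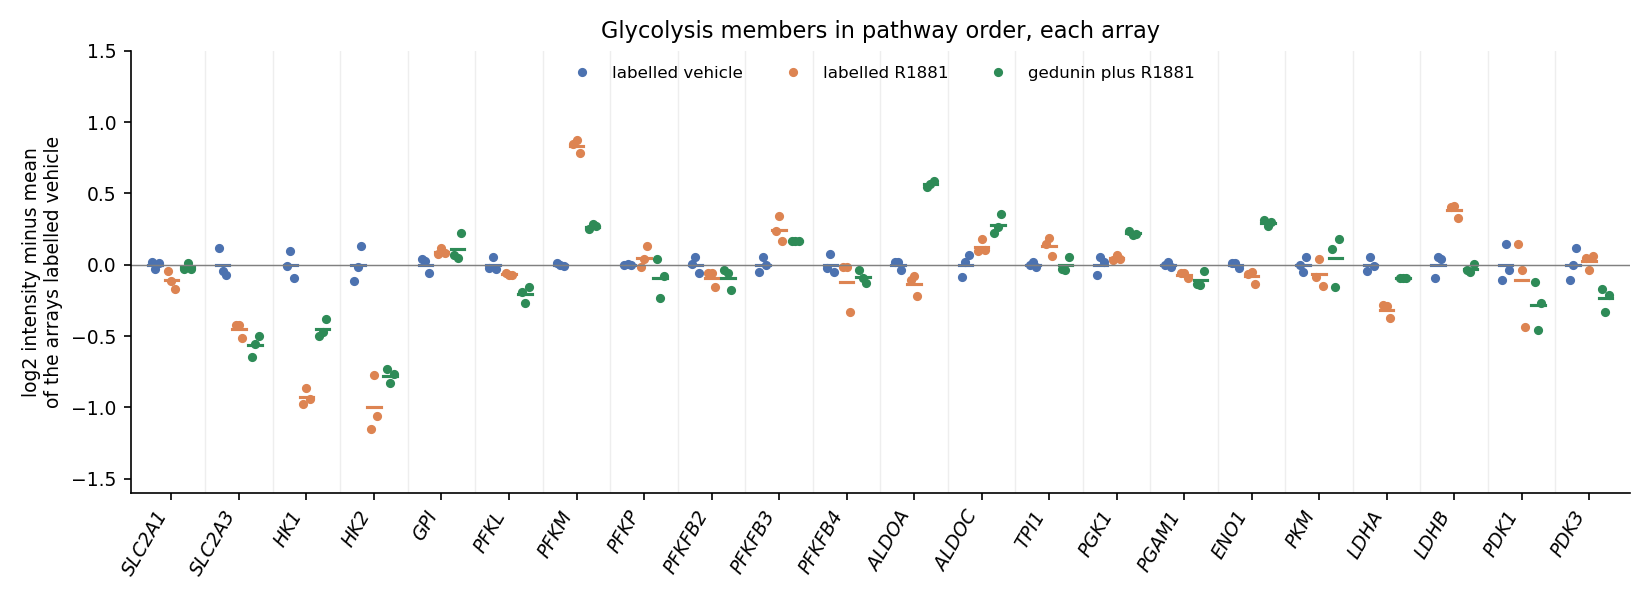
Points show log2 intensity on each array minus the gene's mean on the arrays labelled vehicle, for the 22 glycolysis genes in pathway order, with short lines at group means. HK1 and HK2 lie below the zero line on every array labelled R1881 and every gedunin array, PFKM is highest on the arrays labelled R1881, and ALDOA is highest on the gedunin arrays.

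The oxygen-sensing part of the pathway was measured through HIF1A, EPAS1 and EGLN1. HIF1A averaged 1319 ± 58.7, 1020 ± 41.7 and 1219 ± 14.7 on the arrays labelled vehicle, labelled R1881 and gedunin plus R1881 (intensity, SD, n = 3). It fell by 0.37 on the log2 scale in the first comparison (limma adjusted p = 0.000199) and rose by 0.26 in the second (adjusted p = 0.00349). EPAS1, which encodes HIF-2 alpha, lay between 30.6 and 38.1 on all arrays, under the lowest array median, and was not called, at -0.04, -0.14 and -0.19. Its other probe set, 200878_at, also under that median, was called higher in the second comparison (0.21, limma adjusted p = 0.0442). EGLN1, the prolyl hydroxylase that marks HIF and is itself a HIF target, read 52.9, 55.3 and 53.6 on the arrays labelled vehicle, 54.0, 56.0 and 56.0 on those labelled R1881 and 77.3, 75.0 and 80.7 on the gedunin arrays. The gedunin arrays stood alone, 1.4-fold above those labelled R1881 (0.49 ± 0.05, limma adjusted p = 1.18e-05) and 1.44-fold above those labelled vehicle (adjusted p = 6.65e-06). EGLN1 means on the arrays labelled vehicle and labelled R1881, 53.9 and 55.3, lay close to the array medians, so these folds are approximate. They rest on a single probe set, 221497_x_at.

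VEGFA, the angiogenic growth factor, had the largest change of the 33 genes in the first and the second comparison when each is taken by its brightest probe set. It read 652, 649.7 and 652 on the arrays labelled vehicle, 287, 272 and 265 on those labelled R1881 and 842, 886 and 773 on the gedunin arrays. The 3 groups did not overlap. VEGFA was 2.37-fold lower in the first comparison (log2 fold change -1.25 ± 0.06, SE, limma adjusted p = 4.59e-09), 3.03-fold higher in the second (1.60 ± 0.06, adjusted p = 7.14e-10) and 1.28-fold higher in the third (0.35 ± 0.06, adjusted p = 0.000658). In the fit over all probe sets, each of its 4 probe sets was called in the first comparison, from -1.25 to -0.74, and in the second, from 0.87 to 1.60. In the third the other 3 were not called, at 0.13, 0.14 and 0.13, so the excess over the arrays labelled vehicle rests on the brightest probe set. ADM, the vasodilator peptide adrenomedullin, stayed between 18.6 and 24.4 on all arrays, under the lowest array median, and was called higher in the first comparison (0.26 ± 0.07, limma adjusted p = 0.00731). With values under that median raised to it, the ADM call was lost.

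BNIP3, a mitochondrial protein that promotes mitophagy, read 1616, 1806 and 1721 on the arrays labelled vehicle, 1143, 1199 and 1298 on those labelled R1881 and 2648, 2688 and 2519 on the gedunin arrays. The groups were apart in every comparison. It was 1.41-fold lower in the first (log2 fold change -0.50 ± 0.07, SE, limma adjusted p = 5.14e-05), 2.16-fold higher in the second (1.11 ± 0.07, adjusted p = 3.44e-08) and 1.53-fold higher in the third (adjusted p = 9.95e-06), and its other probe set gave -0.67, 1.12 and 0.45, all called. Its relative BNIP3L was not called, at -0.01, 0.19 and 0.18. Without gedunin replicate 3, its lowest gedunin array, BNIP3L passed in the second comparison (0.27, limma adjusted p = 0.0101) and in the third (0.26, adjusted p = 0.0139). Its other probe set, 221478_at, was called in both (0.23, adjusted p = 0.0102, and 0.35, adjusted p = 0.000711), with each gedunin array above all others.

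The collagen prolyl hydroxylase subunits were highest on the gedunin arrays. P4HA1 read 290.7, 290.7 and 274 on the arrays labelled vehicle, 245, 230.2 and 247 on those labelled R1881 and 379.8, 398 and 397 on the gedunin arrays. P4HA2 read 80.3, 85.6 and 80.3, then 65.8, 73.5 and 70.5, then 173, 172 and 188 in the same order. No array of one group reached into another for either gene. P4HA2 rose 2.54-fold in the second comparison (log2 fold change 1.35 ± 0.06, SE, limma adjusted p = 4.53e-09) and 2.16-fold in the third (adjusted p = 2.6e-08), the largest change of the 33 genes there. P4HA1 rose 1.63-fold (adjusted p = 6.03e-07) and 1.37-fold (adjusted p = 3.25e-05). Both were lower in the first comparison, P4HA1 at -0.24 (limma adjusted p = 0.00434) and P4HA2 at -0.23 (adjusted p = 0.0126), the latter not called without R1881 replicate 1 (adjusted p = 0.0588).

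MXI1, which encodes an antagonist of MYC and is listed among HIF targets, ran the other way. It read 168, 185 and 178 on the arrays labelled vehicle, 349.6, 387 and 340.5 on those labelled R1881 and 157, 157 and 168 on the gedunin arrays. The arrays labelled R1881 lay far above the rest, 2.03-fold over those labelled vehicle (log2 fold change 1.02 ± 0.06, SE, limma adjusted p = 5.48e-08) and 2.23-fold over the gedunin arrays (-1.16 ± 0.06 in the second comparison, adjusted p = 2.32e-08). BHLHE40, a transcriptional repressor induced by hypoxia, read 61.4, 65.6 and 51.8 on the arrays labelled vehicle, 38.0, 36.3 and 40.6 on those labelled R1881 and 50.3, 51.8 and 57.8 on the gedunin arrays. It was 1.55-fold lower in the first comparison (limma adjusted p = 8.54e-05) and 1.39-fold higher in the second (adjusted p = 0.000967). These folds are approximate, and neither call held with values under the lowest array median raised to it (adjusted p = 0.216 and 1). Its other probe set, under the lowest array median in every group, was not called in the second comparison. That probe set was called lower in the third (-0.31, limma adjusted p = 0.00486), where the brightest was not called (-0.16).

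**Figure D4:**
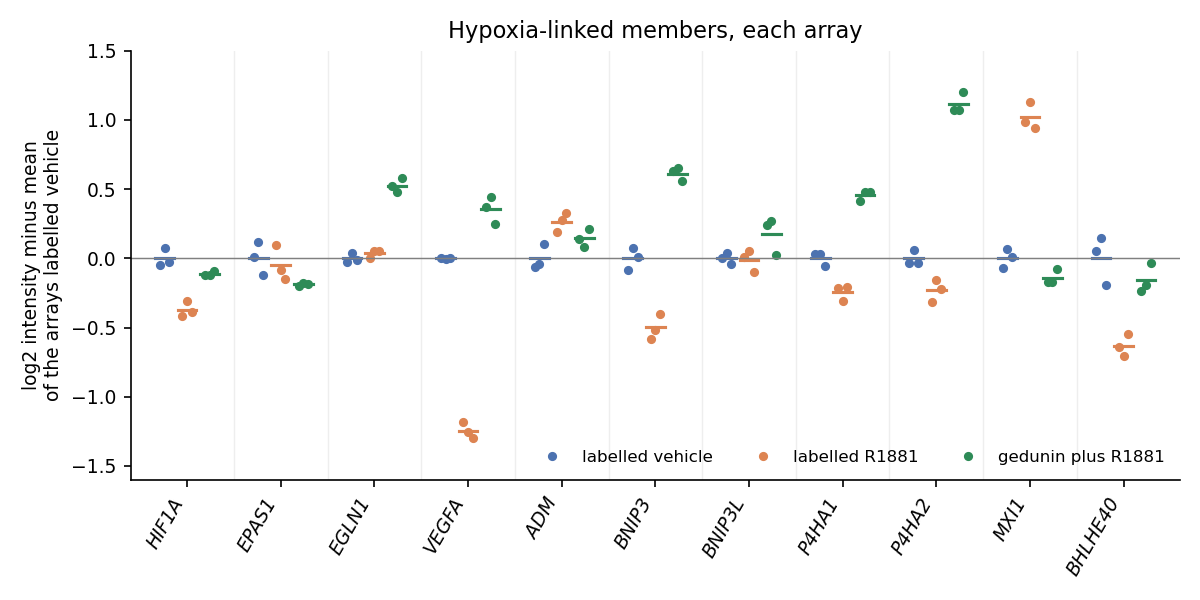
Points show log2 intensity on each array minus the gene's mean on the arrays labelled vehicle, for the 11 hypoxia-linked genes, with short lines at group means. VEGFA, BNIP3, P4HA1 and P4HA2 have the arrays labelled R1881 lowest and the gedunin arrays highest, and MXI1 has the arrays labelled R1881 highest.

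The promoters of 4 of these genes are shown for the sequence that HIF reads. They belong to the genes with the largest called rises and falls in the second comparison that are in the RefSeq promoter table (GRCh38.p14), which holds 29 of the 33 genes and no entry for VEGFA, BNIP3L, PFKFB2 or SLC2A3. Each runs 5′ to 3′ from 250 bases before to 50 bases after the gene start, and capitals mark ACGTG or GCGTG on either strand, the core of the hypoxia response element. Where the table gives several starts (3 for MXI1, 7 for PFKM), the first is shown. P4HA2 and BNIP3 rose, and MXI1 and PFKM fell.
P4HA2, chr5:132227042-132227341, minus strand: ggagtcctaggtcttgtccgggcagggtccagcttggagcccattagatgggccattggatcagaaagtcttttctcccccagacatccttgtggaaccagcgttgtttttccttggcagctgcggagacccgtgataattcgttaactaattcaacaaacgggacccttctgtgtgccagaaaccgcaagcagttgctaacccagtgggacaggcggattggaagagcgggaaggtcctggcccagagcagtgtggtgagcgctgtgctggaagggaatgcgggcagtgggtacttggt
BNIP3, chr10:131981874-131982173, minus strand: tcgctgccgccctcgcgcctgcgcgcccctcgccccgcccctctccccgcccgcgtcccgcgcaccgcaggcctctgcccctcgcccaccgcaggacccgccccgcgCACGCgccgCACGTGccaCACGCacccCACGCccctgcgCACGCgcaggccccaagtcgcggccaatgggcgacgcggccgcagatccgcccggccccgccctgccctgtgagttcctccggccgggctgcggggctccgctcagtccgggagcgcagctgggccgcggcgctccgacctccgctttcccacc
MXI1, chr10:110207355-110207654, plus strand: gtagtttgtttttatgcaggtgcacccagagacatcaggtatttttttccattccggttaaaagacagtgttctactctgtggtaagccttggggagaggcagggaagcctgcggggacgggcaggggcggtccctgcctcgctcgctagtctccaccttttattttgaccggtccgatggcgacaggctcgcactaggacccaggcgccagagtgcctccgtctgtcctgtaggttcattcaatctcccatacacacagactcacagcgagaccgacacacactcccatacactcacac
PFKM, chr12:48105623-48105922, plus strand: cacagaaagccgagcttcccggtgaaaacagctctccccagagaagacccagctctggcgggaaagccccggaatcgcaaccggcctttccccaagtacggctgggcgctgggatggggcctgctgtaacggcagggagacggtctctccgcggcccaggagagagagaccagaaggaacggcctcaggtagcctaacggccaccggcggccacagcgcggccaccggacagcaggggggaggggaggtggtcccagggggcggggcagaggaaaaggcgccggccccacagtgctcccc

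The BNIP3 window held 6 matches, 2 of them the overlapping strands of the ACGTG core, with starts between 143 and 104 bases before the gene start. The P4HA2 window and the shown windows of MXI1 and PFKM held 0. Of the windows not shown, the other MXI1 starts held 2 matches each, and 2 PFKM starts held 1 each, so the 0 of these genes depends on showing the first entry. Taking the first window of each gene, either motif occurred in 7 of 9 hypoxia-linked genes and 14 of 20 glycolysis genes, 77.8% and 70% of each, against 58.7% of genes measured on the array and 48.4% of all genes in the table. ACGTG alone occurred in 4 and 7 of these genes, against 24.8% of measured genes. A match is a stretch of letters and not a site of binding.

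Related genes were also set against each other within each array, which removes any shift that both share. Over 13 pairs, the groups did not overlap for 9 in the first comparison, 8 in the second and 9 in the third. An exact two-sided permutation test gave p = 0.1 for each of these, the smallest that 3 arrays against 3 allow, and 0.15 after adjustment over 39 tests, so no pair passes. The share without overlap among gene pairs at large was not computed, and some pairs reuse a gene. The counts of pairs without overlap are therefore no result about these pairs. LDHA minus LDHB shifted by -0.70 in the first comparison and 0.63 in the second on the log2 scale, and by -0.06 in the third, where the groups overlapped. PFKM minus PFKL shifted by 0.90, -0.43 and 0.47. BNIP3 minus BNIP3L, the widest shift in the second comparison, moved by 0.92 there, P4HA1 minus P4HA2 by -0.64 and ALDOC minus ALDOA by -0.54. HK2 minus HK1 moved by -0.07 in the first comparison, with overlap, and by -0.26 in the second.

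**Figure D5:**
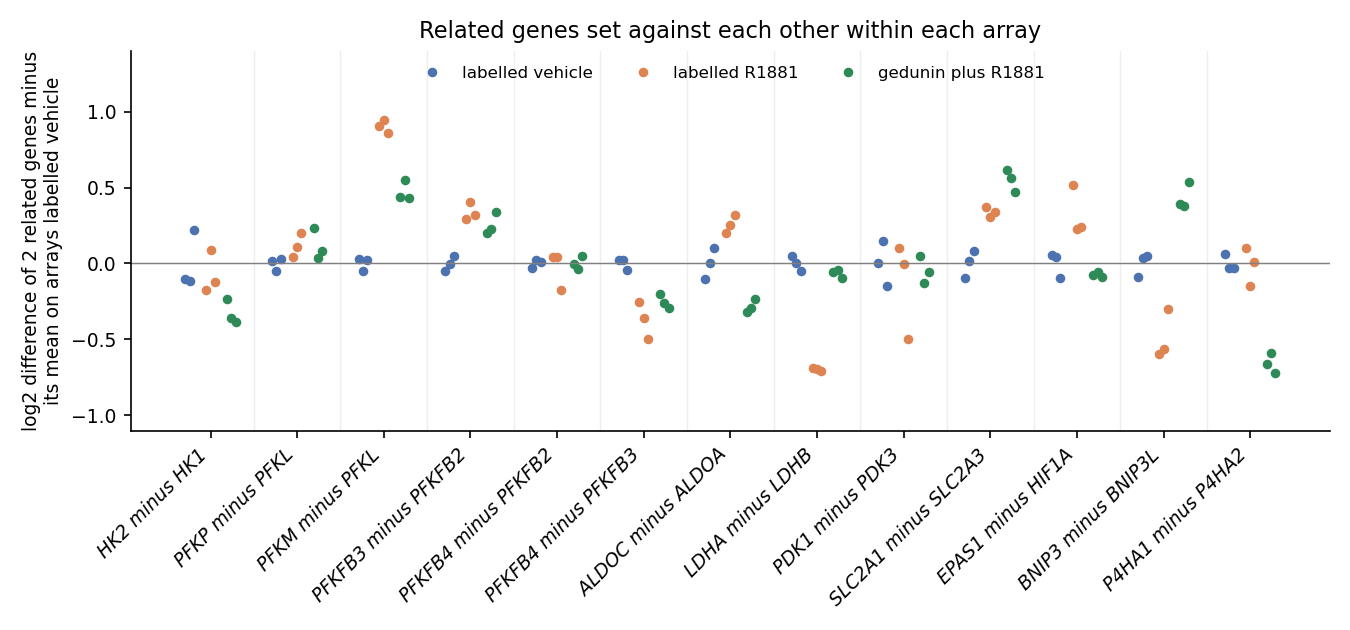
Points show, for each array, the log2 difference between 2 related genes minus that pair's mean on the arrays labelled vehicle, for 13 pairs. LDHA minus LDHB is lowest on the arrays labelled R1881 and near zero on the gedunin arrays, and P4HA1 minus P4HA2 is lowest on the gedunin arrays.

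By group means, 8 of the 33 genes ran from gedunin plus R1881 to labelled vehicle to labelled R1881 in falling order, an order held by 13.6% of all genes. For VEGFA, BNIP3, P4HA1 and P4HA2 both neighbouring steps of this order were called by limma. The VEGFA step between the gedunin arrays and those labelled vehicle was called with its brightest probe set only. Of all genes, 1.57% had this order with both steps called. For ALDOA and ENO1 only the step from the gedunin arrays down was called, and for PKM and BNIP3L neither step was. Another 8 genes ran from labelled vehicle to gedunin plus R1881 to labelled R1881, the order of KLK3, TMPRSS2 and FKBP5 and of 19.4% of all genes. Both steps were called for HK1 alone among them, and 2.25% of all genes had this order with both steps called. For HK2 the arrays labelled vehicle differed from the gedunin arrays, and for LDHA, HIF1A and BHLHE40 the gedunin arrays differed from those labelled R1881.

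Other genes of these pathways came from a list chosen by name, also with earlier results of these data known. Of 28 further glucose and pyruvate genes measured, 7 rose and 5 fell in the first comparison, 3 and 6 in the second, and 6 each way in the third. These shares, 42.9%, 32.1% and 42.9%, stand beside 30.3%, 27.4% and 26.9% of all genes. MPC2, a mitochondrial pyruvate carrier subunit, was 2.62-fold lower in the first comparison and 1.99-fold lower in the third. Its partner MPC1 was higher in each, 1.18-fold in the first (limma adjusted p = 0.00801) and 1.61-fold in the third (adjusted p = 1.81e-06). ME2, mitochondrial malic enzyme, was 1.95-fold higher in the first. PDHB and DLD, subunits of the pyruvate dehydrogenase complex, had log2 fold changes of -0.77 and -0.76 in the second (limma adjusted p = 2.88e-07 and 1.01e-06). GAPDH rose only slightly in the third comparison (0.22 ± 0.05, SE, adjusted p = 0.00882) and was not called in the other two.

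Of 31 further hypoxia and oxygen-sensing genes measured, 6 rose and 8 fell in the first comparison, 10 rose and 6 fell in the second, and 7 went each way in the third. These are 45.2%, 51.6% and 45.2% of the list, beside 30.3%, 27.4% and 26.9% of all genes. The 11 hypoxia-linked genes above had median log2 fold changes of -0.23, 0.47 and 0.18, and these 31 had -0.12, 0.03 and -0.04. NDRG1, induced by both hypoxia and androgen, had the largest change of them in each comparison, with means of 3582, 249 and 788 on the arrays labelled vehicle, labelled R1881 and gedunin plus R1881. It was 14.4-fold lower in the first comparison and 3.17-fold higher in the second (limma adjusted p = 1.96e-08), and 4.54-fold lower in the third. STC2, the secreted glycoprotein stanniocalcin 2, rose 2.05-fold in the second comparison, and P4HB, the beta subunit that pairs with P4HA1 and P4HA2, rose 1.75-fold. CITED2, a HIF-induced inhibitor of HIF transcription, fell 1.89-fold in the second comparison and 2.35-fold in the third. In the first comparison INSIG2, which holds back sterol synthesis, was 2.44-fold and IGFBP3, a binding protein of insulin-like growth factors, 1.82-fold higher, and VLDLR, a lipoprotein receptor, was about 2.25-fold lower. In the third INSIG2 was 1.86-fold, IGFBP3 1.85-fold and STC2 1.78-fold higher.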

How the data were processed

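The values the authors deposited are linear intensities, 1 for each probe set on each array. RMA is the tool that the submitters' processing notes name, with software and version not given in the sources used here. RMA usually equalises the arrays' distributions, so a change in total RNA per cell cannot be seen, yet array medians still ran from 52.4 to 54.5. Log2 was taken of each deposited intensity. Of 22277 probe sets, 62 controls were left out, and 19064 had 1 gene symbol in the platform annotation. Symbols were compared with RefSeq (GRCh38.p14), used for names only, and 0 changed, while 12 probe sets had no match. For each of 11963 genes the brightest probe set (highest mean log2 value) stood in. A second fit covered all 22215 probe sets other than controls.

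A limma model (version 3.58.1, R 4.3.3) was fitted to all 9 arrays with a mean for each group. Moderated two-sided tests of the 3 contrasts (6.38 prior degrees of freedom) were adjusted by Benjamini-Hochberg across the genes, and a call needed an adjusted p under 0.05. The script was tested on simulated data. The p-values weigh each difference between groups against the spread between these cultures, pooled over the groups and moderated across genes. The number of arrays, 3 per group, limits the precision. Folds are approximate where a group mean lies under the lowest array median.

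Members and lists were chosen with earlier results of these data known. All measured members are accounted for. Values of every array are given for the 8 called members with the largest change in the first and in the second comparison and 5 in the third, and up to 6 other pathway genes per comparison are named with their fold. Promoters are shown for the 2 called members with the largest rise and the 2 with the largest fall in the second comparison that had an entry. Alternatives were each array left out, a replicate block, trended and robust variance, quantile normalization repeated, median centring, dropping or flooring dim genes, other choices of probe set and fitting only the groups compared. The first promoter entry of a gene, GAPDH, MPC1, PFKFB2 probe set 209992_at and the order of the groups were singled out after their values were seen.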

Additional observations from a re-analysis of the deposited data

How the results depend on the processing

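Counts of all genes called stayed within 1.5 times in each alternative run. Of 1767 values of single members under alternatives, 1697 kept their direction and their side of the threshold, 49 gained and 20 lost a call, and 1 reversed: PGK1 in the second comparison, 0.17 with the brightest probe set and -0.15 (not called) with the most variable one. On the arrays labelled vehicle, the mean of that most variable PGK1 probe set lay under the lowest array median. With quantile normalization repeated, 5 glycolysis genes rose in the first comparison (median -0.01), 6 fell in the second, and 1 hypoxia-linked gene fell in the third. With the most variable probe set the median of glycolysis genes was -0.02 in the first comparison and that of hypoxia-linked genes 0.35 in the third, and PFKFB2 fell by 1.36 in the first. With dim genes dropped, 1 hypoxia-linked gene rose in the first comparison, and medians were 0.60 in the second and 0.41 in the third. With low values raised to the lowest array median, 1 rose in the first comparison, with medians of -0.18 there and 0.26 in the second. With the mean of all probe sets the hypoxia-linked median was 0.32 in the second comparison and 1 gene fell in the third. Fewer or floored dim genes follow from how these alternatives are built; otherwise the cause was not tested.

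Leaving out each array in turn, medians of glycolysis genes ranged from -0.09 to -0.02, -0.04 to 0.03 and -0.08 to -0.02 over the 3 comparisons in order, and those of hypoxia-linked genes from -0.25 to -0.19, 0.41 to 0.50 and 0.15 to 0.26. Glycolysis genes that rose numbered 3 to 4, 4 to 5 and 5 to 6, and those that fell 4 to 4, 2 to 5 and 3 to 6. Hypoxia-linked genes that rose numbered 2 to 2, 7 to 8 and 5 to 6, and those that fell 5 to 6, 1 to 1 and 0 to 2.

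Replicate numbers shared between groups did not pair the arrays: deviations of same-numbered arrays correlated from -0.107 to 0.133, with 1 of 9 pairs over 0.1, and 1 of 9 arrays correlated best with its own number in both other groups. With the number as a replicate block, 3576, 3210 and 3178 genes were called in place of 3624, 3277 and 3219, 8 hypoxia-linked genes rose in the second comparison and 6 in the third, BNIP3L being added in both.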
